A study of Mus musculus with 40 samples.

Results

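The genes described are those of the MYC, MAX and MXD network: Myc, Mycn and Mycl, the MAX partner Max, the MXD family members Mxd1, Mxd3, Mxd4 and Mxi1, the MAX partner Mnt and the related factor Mlx. They were taken as a set of 10 genes, and every probe set that the array's annotation gives to 1 of them alone was kept. This gave 23 of the 45141 probe sets on the array and covered 9 of the 10 genes. Max had no probe set naming it alone and is not analysed here. MYC proteins activate growth genes as dimers with MAX on the E-box, a short palindrome in promoters. MXD1, MXD3, MXD4, MXI1 (also called MXD2) and MNT compete for MAX, bind the same sites and recruit the SIN3 corepressor complex, so the balance of the 2 arms is set by their levels. MLX forms a parallel branch that dimerizes with glucose-sensing partners and with some MXD proteins, and in many tumours transcription of Myc depends on BET bromodomain proteins.

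RNA came from B16F10, a mouse cutaneous melanoma line, grown in culture or as tumours after injection under the skin of C57black6J mice 8 weeks old. The 6 groups were 4 cultures treated with OTX015, an inhibitor of BET bromodomain proteins, with 4 untreated cultures; 10 tumours of mice given OTX015 by mouth, with 11 tumours of untreated mice; and 6 tumours of mice given guadecitabine, an inhibitor of DNA methylation, into the abdomen, with 5 tumours of untreated mice of that experiment. All groups share the 1 line, and each treated group has controls of its own. Dose, duration and sex are not in the labels, nor is any sorting of the tumours. They do not tell whether each replicate was a culture or animal of its own, so that p-values measure only the spread between these samples, which may be technical.

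Values are log2 intensities from the authors' RMA processing, in which a difference of 1 is 2-fold. The 10 arrays of OTX015-treated tumours had means of 4.35 to 4.39 over all probe sets, against 4.55 to 4.64 on the other 30, so this comparison and the tests of a difference between effects use values after quantile normalization. A level of 4.46, the 95th percentile of 83 olfactory and vomeronasal receptor probe sets, marks background. All 7 melanocyte markers lay above it in every group. Of 8 macrophage markers all 8 did so in each tumour group and 1 did so in each culture group. In bulk tumours, fewer cells of a type and less RNA per cell cannot be told apart.

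The E-box CACGTG, which reads the same on both strands, was searched in RefSeq's promoters of mouse assembly GRCm38.p6 (250 bases before to 50 after the start). Of the 10 member genes 9 had a promoter entry. The exception was Myc, whose promoter was therefore not searched. The motif was held by 4 of those 9, against 8.09% of the 27025 genes with an entry. The sites with 12 bases on either side are shown 5′ to 3′ on the gene's strand, with the E-box in capitals, because they are the letters the network's own proteins read. A match is a description and not a sign of binding.

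Mxd4: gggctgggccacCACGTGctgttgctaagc
Mnt: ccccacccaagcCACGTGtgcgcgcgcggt
Mlx: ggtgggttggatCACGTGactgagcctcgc
Max: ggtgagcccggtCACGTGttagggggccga

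These windows lie at chr5:34187912-34187941 on the minus strand (Mxd4), chr11:74830789-74830818 on the plus strand (Mnt), chr11:101087238-101087267 on the plus strand (Mlx) and chr12:76962234-76962263 on the minus strand (Max). The E-box began 219 bases before the annotated start in Mxd4, 123 in Mnt, 40 in Mlx and 3 in Max. Mxd1, the member with the largest rise in the comparisons below, had no CACGTG. The 250 bases before its start, chr6:86669160-86669409 on the minus strand, are shown with the GC box, GGGCGG or its complement CCGCCC, in capitals. That box is the motif of SP1-type factors and stood 6 times here, the last copy overlapping the one before it.

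Mxd1: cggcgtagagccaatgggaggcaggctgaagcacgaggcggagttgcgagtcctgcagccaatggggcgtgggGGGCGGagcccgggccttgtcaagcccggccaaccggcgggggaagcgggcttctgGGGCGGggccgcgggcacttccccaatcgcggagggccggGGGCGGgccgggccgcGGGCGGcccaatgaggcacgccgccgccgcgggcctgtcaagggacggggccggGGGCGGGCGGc

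At least 1 GC box was present in 32.7% of all 32851 promoters of this length and in 9 of the 11 promoters of member genes. Over the 300 bases searched for the E-box, counts in member promoters ran from 0 in Mlx and Max to 8 in Mxd3, with 6 in Mxd1. A high count was therefore not particular to Mxd1.

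By the mean over the 40 arrays, 13 of the 23 member probe sets lay above background, from 8 genes. Levels of different probe sets are not comparable, but each can be followed across groups, here after quantile normalization of all 40 arrays. Myc, read by 1 probe set, was above background on all 40. Its group means from low to high were 6.68 ± 0.07 in OTX015-treated cultures (SD, n = 4), 7.91 ± 0.53 in OTX015-treated tumours (n = 10), 7.94 ± 0.18 in untreated cultures (n = 4), 8.05 ± 0.37 in their tumour counterparts of the OTX015 experiment (n = 11), 8.30 ± 0.61 in guadecitabine-treated tumours (n = 6) and 8.74 ± 0.21 in the controls of that experiment (n = 5). The ranges of all neighbours in this order overlapped, the lowest 2 only because 1 OTX015-treated tumour, at 6.66, lay within the range of the treated cultures, 6.61 to 6.77. On deposited values untreated cultures (8.24) averaged above both tumour groups of the OTX015 experiment, 7.66 with OTX015 and 8.04 without. The order also runs across experiments, whose untreated tumours differed in other RNAs. After quantile normalization, the mean of the nuclear-retained RNAs Malat1, Neat1 and Kcnq1ot1 had a median of 5.36 in controls of the OTX015 experiment. It was 8.21 in those of the guadecitabine experiment. The part of this gap in the levels of Myc was not tested.

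Mycn, the paralogue best known from neuroblastoma, separated cultures from tumours on its brightest probe set (1425923_PM_at). That probe set averaged 8.20 and 8.43 in untreated and OTX015-treated cultures, and 10.37 to 10.82 in the 4 tumour groups, and no culture reached the lowest tumour (9.10 against 9.75). Its other 2 probe sets were not above background on any of the 40 arrays, and their highest deposited values were 4.27 and 3.07. The probe sets of Mycn therefore disagree, and which transcript the bright one reads was not tested. Mycl, the third MYC gene, had 3 probe sets, none above background on any array, with deposited values from 2.75 to 3.74.

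For Mnt, the broadly expressed antagonist of MYC, the order depended on the scale. After this normalization its brightest probe set averaged 6.36 and 6.45 in OTX015-treated and untreated cultures against 6.97 to 7.40 in the tumour groups, with no overlap between the highest culture (6.57) and the lowest tumour (6.66). On deposited values the groups overlapped, with means of 6.66 and 6.82 in OTX015-treated and untreated cultures, 6.73 in OTX015-treated tumours and 6.92 in their controls. Mxd1, an antagonist that in other tissues accumulates as cells differentiate, stood out in 1 group: OTX015-treated cultures averaged 6.07 ± 0.23 (n = 4) and all lay above every other array, the 5 other groups averaging 5.13 to 5.35. The ranges of neighbouring groups overlapped throughout for Mxd3, an MXD protein linked to proliferating cells, and for Mxd4, Mxi1 and Mlx. Cultures and tumours differ in growth conditions and in the cells present, which cannot be told apart here.

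**Figure D1:**
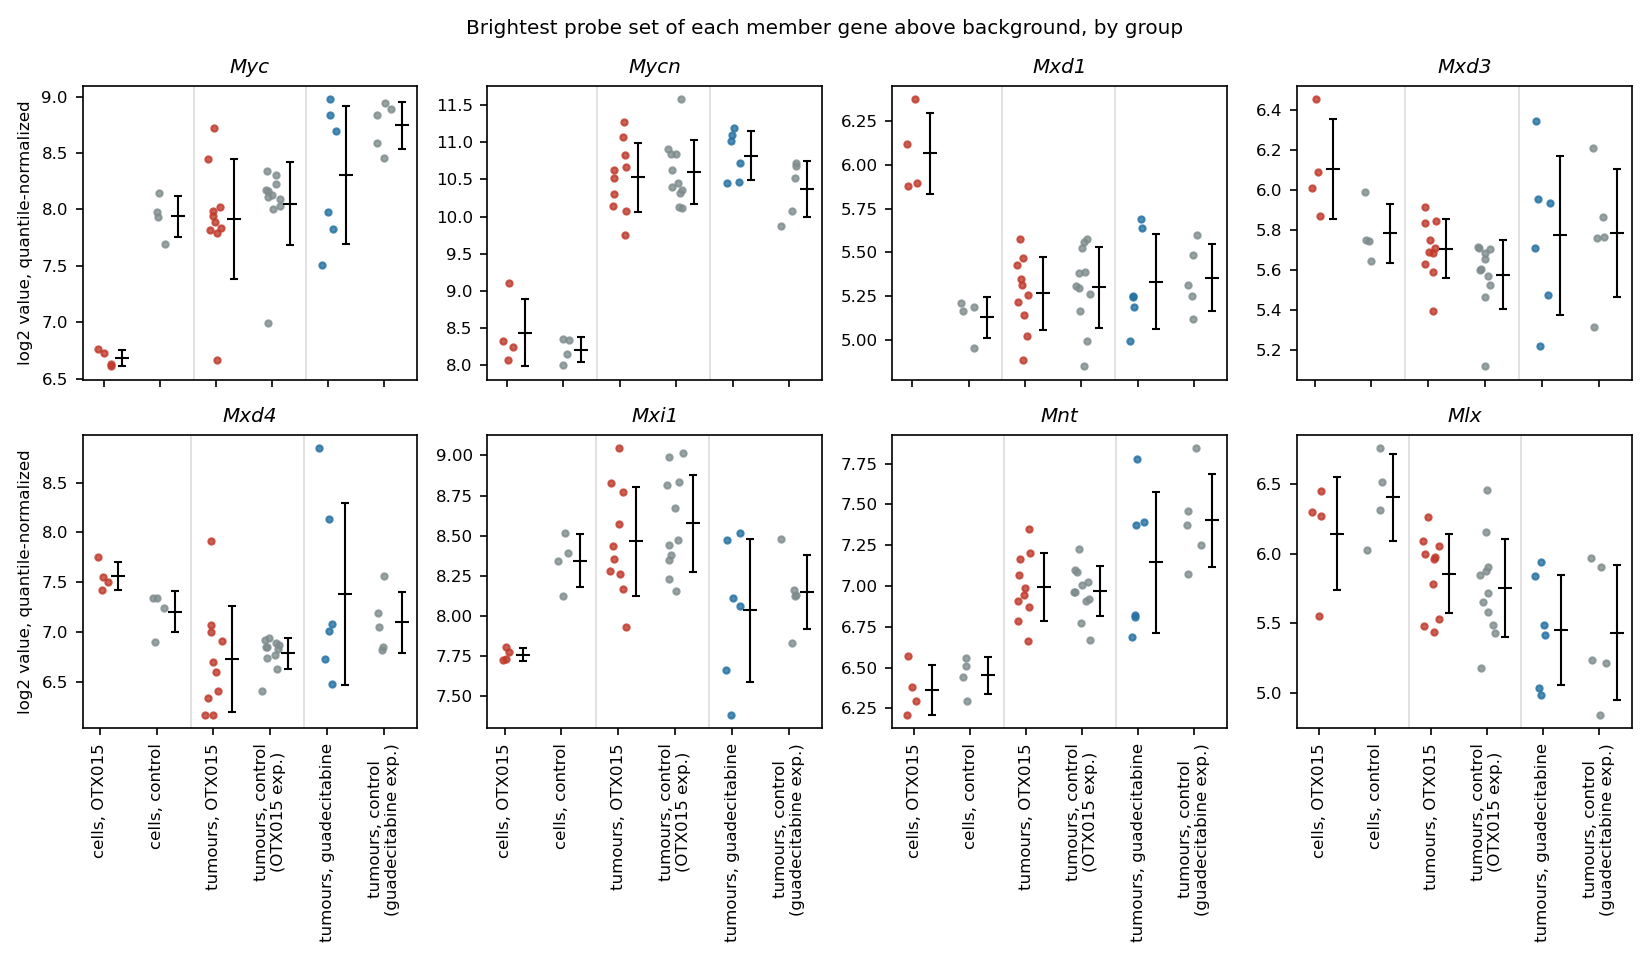
Quantile-normalized log2 values of the brightest probe set of each of the 8 member genes above background, by group; each point is 1 array, and the horizontal mark with its bar gives the mean and SD. Myc is lowest and Mxd1 highest in OTX015-treated cultures, and on this scale Mycn and Mnt are lower in both culture groups than in the 4 tumour groups, which for Mnt does not hold on deposited values.

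Among 3150 genes whose brightest probe set was above background and whose 6 group means spanned at least 1 log2 unit, those with the profile most like that of Myc by Pearson's r over the 6 means were Zfp469 (0.995), Gtf2i (0.993), Marveld1 (0.989), Man2a2 (0.987) and Cenpa (0.985). The 6 points share their arrays and the normalization and come from different experiments, so these are descriptions.

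The first comparison asks how the BET inhibitor altered the network in the melanoma cells themselves. OTX015 lowered Myc 2.36-fold and raised the MXD gene Mxd1 2.02-fold, so that an activator and an antagonist moved in opposite directions. Mxd4 rose slightly, while Mxi1, another antagonist, and Mlx fell. Mycn, Mycl, Mxd3 and Mnt did not pass the test. In all, 7 of 23 probe sets from 5 genes passed an adjusted p under 0.05 in limma, 4 higher and 3 lower (30.4%, against 29.1% of all probe sets), a share near that of the array as a whole. Higher calls made up 13.7% of all probe sets and lower calls 15.3%, and the median difference was 0.06 for the members and 0.01 for all probe sets.

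Myc had 7.02, 6.91, 7.10 and 6.97 in the OTX015-treated cultures, against 8.28, 8.44, 8.01 and 8.23 in the untreated ones. Every treated culture lay well below every untreated one. The log2 difference was -1.24 (SE 0.09, limma adjusted p = 2.17e-06), and it lay between -1.32 and -1.17 when each culture was left out in turn.

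Mxd1 had 6.65, 6.13, 6.18 and 6.44 in treated cultures, against 5.41, 5.50, 5.07 and 5.36 in untreated ones, on its brightest probe set (1434830_PM_at). The groups did not overlap, and the difference was 1.01 (SE 0.13, limma adjusted p = 0.000113). A second probe set (1455104_PM_at) had 5.11, 4.51, 5.21 and 5.19 in treated cultures, against 3.86, 4.21, 3.75 and 4.10 in untreated ones, where all were below background. It passed as well (1.03, SE 0.16, adjusted p = 0.00049 in limma), but against values below background the size of that difference is not a measurement of the fold. The third (1422002_PM_at) differed by 0.15 (SE 0.08, limma adjusted p = 0.192) and stayed below background in both groups.

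Mxd4, an antagonist often found in resting cells, had 8.03, 7.82, 7.76 and 7.89 in treated cultures, against 7.69, 7.71, 7.23 and 7.57 in untreated ones, on probe set 1434378_PM_a_at. On 1434379_PM_at it had 6.35, 6.02, 6.00 and 6.07 in treated cultures, against 5.79, 5.94, 5.49 and 5.63 in untreated ones. Neither pair of groups overlapped, yet the differences were small, 0.32 (SE 0.11, limma adjusted p = 0.0475) and 0.40 (SE 0.11, limma adjusted p = 0.0197). The first call was lost when any treated culture, or untreated replicate 3 or 4, was left out, at adjusted p up to 0.104, and the second without untreated replicate 4, at 0.059. With all 6 groups in 1 fit neither passed (limma adjusted p of 0.576 and 0.0845). The other 2 probe sets differed by -0.01 (1422574_PM_at) and 0.19 (1422575_PM_at) and did not pass.

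Mxi1, a MYC antagonist also known as MXD2, had 8.001, 8.02, 8.08 and 8.11 in treated cultures, against 8.66, 8.78, 8.41 and 8.59 in untreated ones. Each treated culture lay below each control, and the fall was 0.56 on the log2 scale, a difference of -0.56 (SE 0.08, limma adjusted p = 0.000335). With all 6 groups in 1 fit it did not pass (limma adjusted p = 0.0952). The second Mxi1 probe set had 4.33, 5.84, 6.10 and 5.80 in treated cultures, against 6.04, 6.52, 6.09 and 6.25 in untreated ones. It leaned the same way by -0.71 but did not pass (SE 0.32, limma adjusted p = 0.141), with 1 treated culture far below the others.

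Mlx, the hub of the MLX branch, had 5.54, 5.43, 5.65 and 5.60 in treated cultures, against 6.03, 5.95, 6.39 and 6.08 in untreated ones, on probe set 1418437_PM_a_at. These groups did not overlap either, and the difference was -0.56 (SE 0.10, limma adjusted p = 0.00114). Its brighter probe set (1425930_PM_a_at) had 5.71, 6.58, 6.76 and 6.60 in treated cultures, against 6.38, 6.73, 7.07 and 6.86 in untreated ones, a difference of -0.35 that did not pass (SE 0.22, limma adjusted p = 0.297). With the mean of each gene's probe sets, Mlx passed (-0.45, limma adjusted p = 0.0193).

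Of the members that did not pass, Mycn had 9.27, 8.49, 8.33 and 8.59 in treated cultures, against 8.61, 8.62, 8.29 and 8.42 in untreated ones (difference 0.19, SE 0.18). Mxd3 had 6.74, 6.12, 6.39 and 6.31 in treated cultures, against 5.95, 6.14, 6.24 and 6.05 in untreated ones (difference 0.29, SE 0.12, limma adjusted p = 0.106, but 0.0351 without treated replicate 2). Mnt had 6.85, 6.66, 6.52 and 6.62 in treated cultures, against 6.90, 6.99, 6.59 and 6.79 in untreated ones (difference -0.15, SE 0.10). In each of these the groups overlapped. The brightest Mycl probe set had 3.64, 3.61, 3.74 and 3.71 in treated cultures, against 3.66, 3.66, 3.68 and 3.56 in untreated ones, all below background. Counting both directions, the groups did not overlap for 8 of the 23 probe sets, against 30.0% of all.

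Nuclear-retained RNAs also rose in these cultures: the mean of Malat1, Neat1 and Kcnq1ot1 had deposited values between 7.25 and 7.77 in treated cultures and between 6.04 and 6.25 in untreated ones. All 3 passed, where 37.2% of the 17097 named genes were called, 2761 of them higher. Their part in the members' differences was not tested.

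**Figure D2:**
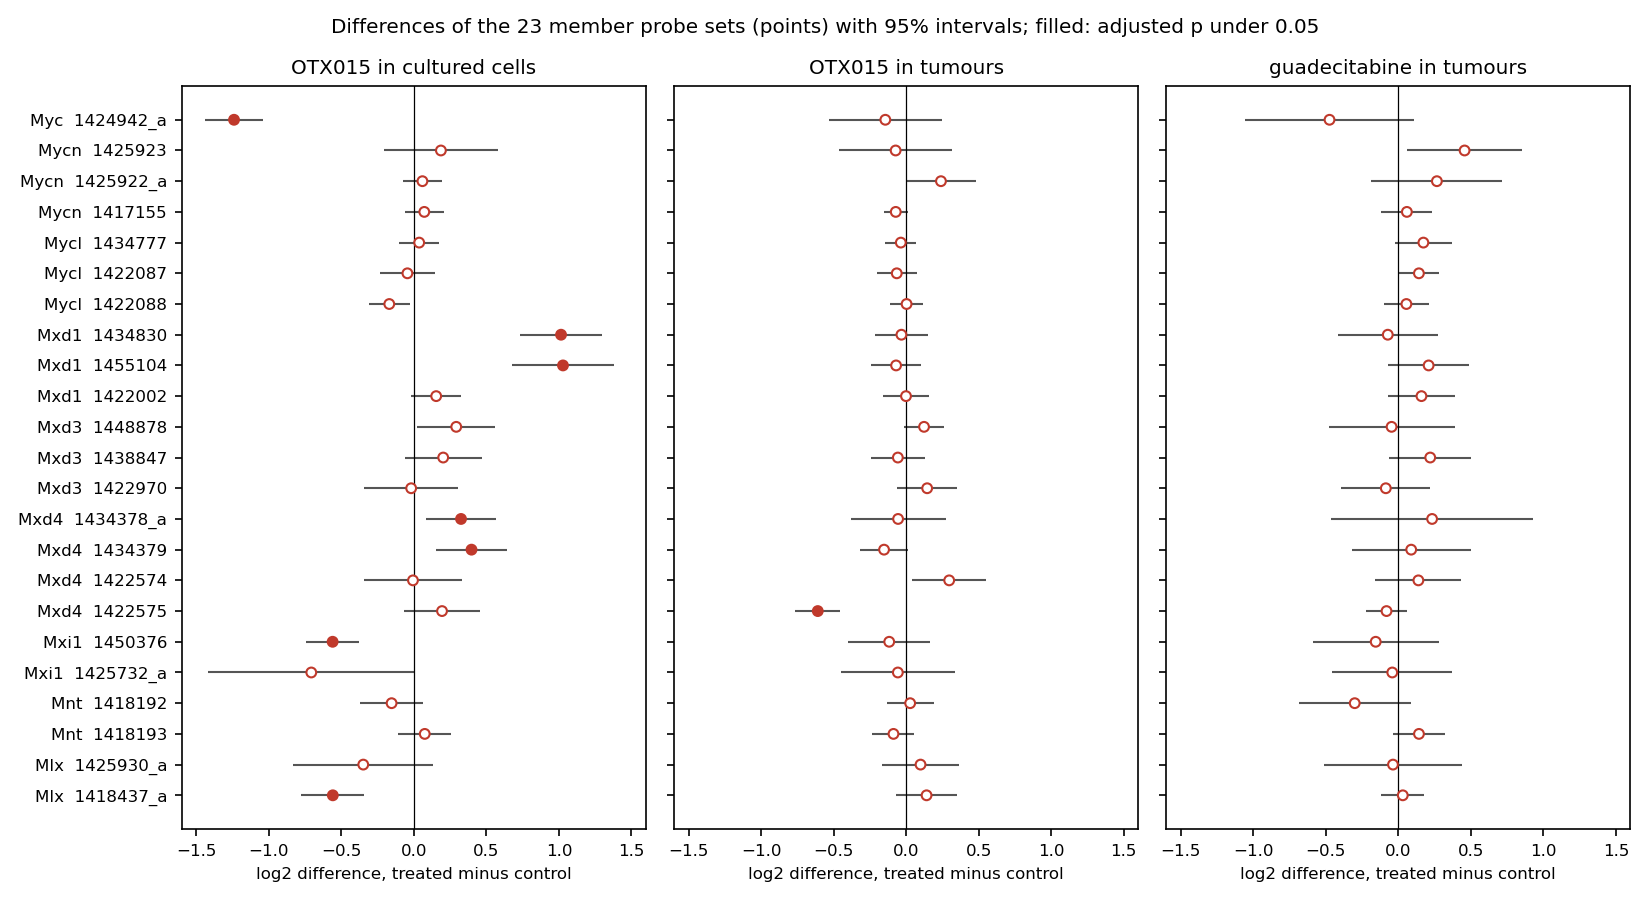
Log2 difference, treated minus control, of the 23 member probe sets (points) with 95% intervals (lines) in the 3 drug comparisons; filled points passed an adjusted p under 0.05. In cultures 7 points are filled, with Myc at -1.24 and Mxd1 at 1.01 and 1.03; in OTX015-treated tumours 1 is, an Mxd4 probe set at -0.61; with guadecitabine none is.

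The second comparison asks the same of tumours in treated mice. Neither Myc nor Mxd1 passed the test there. Of the 23 probe sets 1 was called, a lower one (4.35%, against 16.7% of all probe sets; lower calls were 8.07% and higher calls 8.60% of all). For 0 of 23 did the groups not overlap, against 1.47% of all. It was an Mxd4 probe set whose mean lay below background in both groups. On the deposited values 12 probe sets were called, all lower, where 26835 of all 45141 were called in either direction. The median of all probe sets was itself shifted by -0.21 on that scale.

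Myc ranged from 6.51 over a median of 7.79 to 8.62 in OTX015-treated tumours, and from 6.84 over a median of 8.02 to 8.23 in control tumours. The ranges overlapped, and each group held 1 tumour well below the rest. Apart from that tumour, the lowest control had 7.88, which is above the treated median. The difference was -0.14 (SE 0.19, 95% interval -0.53 to 0.25, limma adjusted p = 0.669), with 8 of 10 treated tumours below the control mean. It was -0.0011 without treated replicate 1, the lowest treated tumour, and -0.25 without control replicate 4, the lowest control, and passed in neither case. The interval leaves out a fall of the size seen in cultures.

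Mxd1 ranged from 4.78 over a median of 5.16 to 5.44 in treated tumours, and from 4.75 over a median of 5.19 to 5.44 in controls. Its difference was -0.03 (SE 0.09, 95% interval -0.21 to 0.15), so both groups covered the same range. Mxi1 ranged from 7.81 over a median of 8.29 to 8.96 in treated tumours, and from 8.04 over a median of 8.37 to 8.93 in controls (difference -0.12, SE 0.14). Mnt ranged from 6.51 over a median of 6.82 to 7.21 in treated tumours, and from 6.52 over a median of 6.81 to 7.08 in controls (difference 0.03, SE 0.08). For these antagonists the tumours of the 2 groups could not be told from each other at this spread.

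Mlx ranged from 5.31 over a median of 5.82 to 6.11 in treated tumours, and from 5.06 over a median of 5.58 to 6.30 in controls (difference 0.10, SE 0.13). Its other probe set ranged from 4.70 over a median of 5.37 to 5.52 in treated tumours, and from 4.64 over a median of 5.14 to 5.52 in controls (difference 0.14, SE 0.10). Neither passed. Mxd3 ranged from 5.27 over a median of 5.56 to 5.77 in treated tumours, and from 5.00 over a median of 5.47 to 5.57 in controls (difference 0.12, SE 0.07). Mycn ranged from 9.67 over a median of 10.52 to 11.25 in treated tumours, and from 10.06 over a median of 10.40 to 11.57 in controls (difference -0.07, SE 0.19). The brightest Mycl probe set, below background, differed by -0.04 (SE 0.05).

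The 4 Mxd4 probe sets went different ways. The called one (1422575_PM_at) ranged from 3.40 over a median of 3.56 to 3.92 in treated tumours, and from 3.84 over a median of 4.26 to 4.63 in controls. All 10 treated tumours lay below the control mean, and the difference was -0.61 (SE 0.07, limma adjusted p = 5.97e-06). The brightest one (1434378_PM_a_at) ranged from 6.02 over a median of 6.50 to 7.79 in treated tumours, and from 6.25 over a median of 6.69 to 6.78 in controls, with a wider spread under treatment and a difference of -0.06 (SE 0.16). The remaining 2 differed by -0.15 (SE 0.08) and 0.30 (SE 0.12, limma adjusted p = 0.107). As the call rests on values below background and on 1 of 4 probe sets, it is not a measurement of a fall in Mxd4 as a whole.

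**Figure D3:**
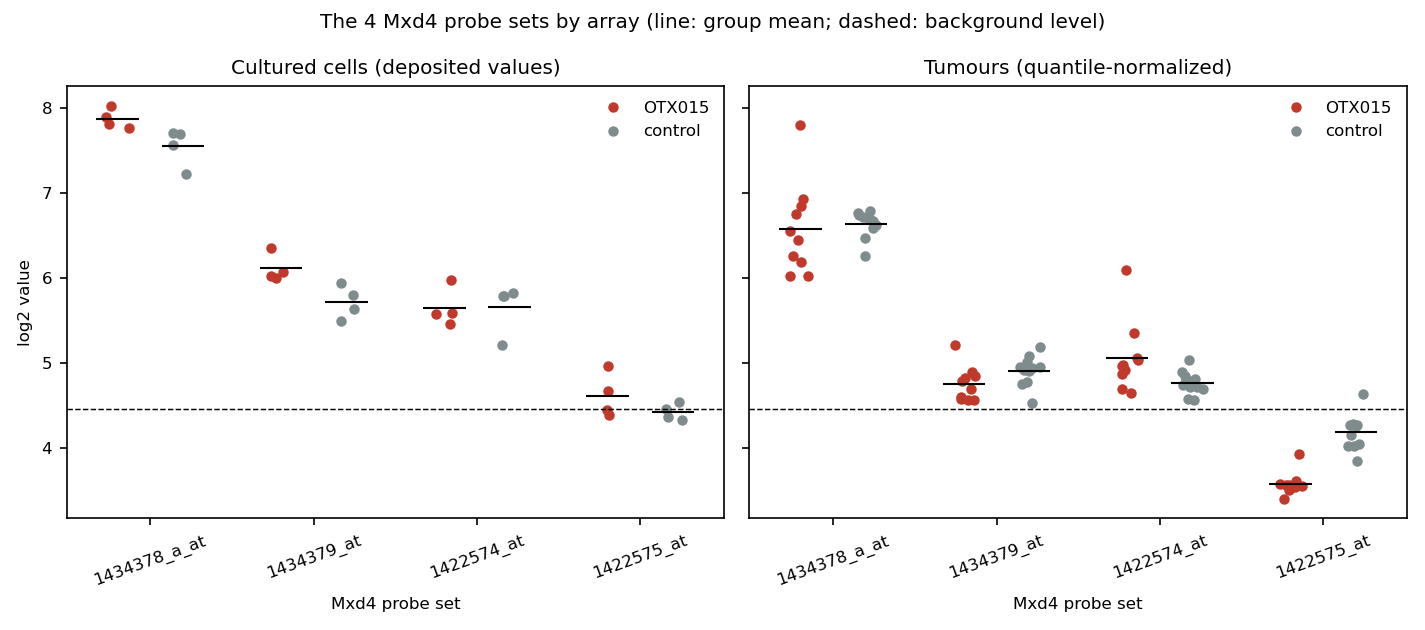
Log2 values of the 4 Mxd4 probe sets by array, OTX015 left of control, in cultures (deposited values) and tumours (quantile-normalized); short lines are group means and the dashed line is the background level of 4.46. Levels of different probe sets are not comparable; in tumours the probe set at the right lies below background in nearly all arrays and is lower on average with OTX015, and the groups overlap for all 4.

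Macrophage markers moved in the same tumours: 7 of 8 passed as lower, with a median difference of -1.17. Among all 17097 named genes 16.8% were called, 1338 lower and 1527 higher. The markers' mean after quantile normalization of all arrays lay between 4.60 and 6.76 in treated tumours and between 6.14 and 8.27 in controls. None of the 8 had a group mean at or below background in either group. Their part in the members' values was not tested.

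Between the 2 settings the effect of OTX015 itself was tested as a difference, tumours minus cultures, after quantile normalization of all arrays in the fit. It passed for 6 of 23 probe sets from 4 genes (26.1%, against 25.9% of all), 2 higher and 4 lower, where 13.4% and 12.6% of all probe sets were higher and lower. For Myc the difference of effects was 1.12 (SE 0.32, limma adjusted p = 0.00804). On the deposited values it was 0.86 and did not pass (adjusted p = 0.0558 in limma). For Mxd1 it was -0.99 (SE 0.17, limma adjusted p = 5.82e-05) and -1.001 (SE 0.17) on 2 probe sets, and it remained past the threshold in each of the 29 fits with 1 array left out. Mlx (1418437_PM_a_at, 0.58, SE 0.20, limma adjusted p = 0.0272) lost its call without untreated culture replicate 3 or treated culture replicate 2, at adjusted p up to 0.0956. Mxd4 passed on 1434379_PM_at (-0.58, SE 0.16) and on the dim 1422575_PM_at (-0.84, SE 0.15), and its brightest probe set (-0.42, SE 0.27, limma adjusted p = 0.288) passed only without treated tumour replicate 4 (-0.55, adjusted p = 0.0339). For Mxi1 the difference of 0.47 did not pass (SE 0.23, limma adjusted p = 0.135), so the fall in cultures was not shown to differ from the values in tumours.

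The third comparison asks what the DNA methylation inhibitor did in tumours. No member probe set passed, and neither did any of the 45141 (0% called; lowest limma adjusted p 0.12; 3079 at an unadjusted p under 0.05, among them 2 of the 23 members). Myc ranged from 7.27 over a median of 8.44 to 8.98 in guadecitabine-treated tumours, against 8.92, 8.63, 8.91, 8.53 and 8.92 in the controls. The treated tumours spread more widely (SD 0.63, n = 6) than the controls (SD 0.19, n = 5), and the difference was -0.47 (SE 0.26, 95% interval -1.06 to 0.11, limma adjusted p = 0.739). Mycn ranged from 10.55 over a median of 10.90 to 11.13 in treated tumours, against 9.88, 10.14, 10.66, 10.56 and 10.78 in controls. All 6 treated tumours exceeded the control mean, but the difference of 0.46 did not pass (SE 0.18, limma adjusted p = 0.709).

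Mxd4 ranged from 6.64 over a median of 7.12 to 8.58 in guadecitabine-treated tumours, against 6.96, 6.86, 7.57, 7.31 and 7.07 in controls (difference 0.23, SE 0.32). Mnt ranged from 6.76 over a median of 7.06 to 7.57 in treated tumours, against 7.45, 7.27, 7.83, 7.56 and 7.09 in controls (difference -0.30, SE 0.18). In both the groups overlapped. Mxi1 ranged from 7.55 over a median of 8.07 to 8.65 in treated tumours, against 8.24, 7.85, 8.11, 8.21 and 8.57 in controls (difference -0.16, SE 0.20). Mxd1 ranged from 4.99 over a median of 5.31 to 5.85 in treated tumours, against 5.46, 5.36, 5.62, 5.75 and 5.16 in controls (difference -0.07, SE 0.16). Mxd3 and Mlx differed by -0.05 (SE 0.20) and -0.04 (SE 0.22) on their brightest probe sets, and that of Mycl, below background, by 0.17 (SE 0.09). The difference between the effects of OTX015 and guadecitabine in tumours passed for 1 member probe set (4.35%, against 4.59% of all, 2.40% higher and 2.19% lower), again the dim Mxd4 1422575_PM_at, at -0.58 (SE 0.12, limma adjusted p = 0.00327). For Myc that difference was 0.31 (SE 0.33, adjusted p = 0.669 in limma).

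Whether members varied together from tumour to tumour was examined for Myc against 7 other genes within the 10 OTX015-treated and the 11 control tumours of that experiment, 14 relations in all. On deposited values Pearson's r ran from -0.37 to 0.52 in treated tumours and from -0.52 to 0.52 in controls, and none had a permutation p under 0.05. By Spearman's rho 3 did in controls before adjustment, Mycn (-0.67, permutation p = 0.0284), Mxd3 (0.72, permutation p = 0.0163) and Mnt (0.74, permutation p = 0.0127), with Benjamini-Hochberg adjusted p-values of at least 0.114 over the 14. Without the 2 tumours farthest from the median Myc value, r in controls was -0.71 for Mycn, 0.83 for Mxd3 and 0.82 for Mnt. After quantile normalization the same values were 0.13 for Mycn, -0.06 for Mxd3 and -0.15 for Mnt, each with the opposite sign. On all tumours after quantile normalization no relation had a permutation p under 0.05 by either measure, and r ran from -0.44 to 0.45.

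The genes around the network were read on each gene's brightest probe set, in lists chosen with earlier results of these data known. Of 41 measured genes known as MYC-activated, 23 fell and 8 rose in OTX015-treated cultures, with a median difference of -0.27 against -0.00 over the 17097 named genes. Of all these genes 37.2% were called, 3598 that fell and 2761 that rose. Srm, which makes spermidine, fell by 1.45 on the log2 scale (SE 0.06, limma adjusted p = 5.57e-08), and Wdr12, a ribosome assembly factor, fell by 1.28. Against that direction, Tfrc, the transferrin receptor, rose by 2.98 and Odc1, the first enzyme of polyamine synthesis, by 1.53. Of 17 genes known as MYC-repressed, 6 rose and 5 fell: Gadd45a (2.07) and the cell cycle inhibitor Cdkn1a (1.55) were higher, and the stress genes Ppp1r15a (-1.43) and Ddit3 (-1.26) lower.

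In tumours these targets moved little. With OTX015, 3 of the 41 activated targets rose and none fell, where 16.8% of all named genes were called, 1527 that rose and 1338 that fell: Polr1b, a subunit of RNA polymerase I (0.38), Rrp12 (0.81) and Tert (0.22), the last 2 below background by their mean. Of these only Rrp12 passed on deposited values, where Tert differed by -0.03. Of the 17 repressed targets Gadd45a rose (0.49, SE 0.16), which was not called on deposited values (0.24). There the median of all probe sets was shifted by -0.21, which works against a rise. After centring each array on its median Gadd45a passed (limma adjusted p = 0.0253). So did Polr1b, Rrp12 and Tert (limma adjusted p of 0.000688, 0.000305 and 0.0386). The effect of OTX015 on the activated targets differed between tumours and cultures for 27 of 41, 20 higher and 7 lower in tumours, against 31.6% of all named genes (3000 higher and 2406 lower). With guadecitabine none of the genes in these lists passed, as for all genes.

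Genes of proteins that MYC recruits or binds on chromatin were divided in OTX015-treated cultures, where 5 of 12 fell and 2 rose. Among all named genes 37.2% were called (3598 lower and 2761 higher), which is also the measure for the next lists. The helicases Ruvbl1 (-0.99) and Ruvbl2 (-0.74) fell, and Ep400 (1.56), a chromatin remodeller that works with them, and Ccnt1 (0.66), the cyclin of the elongation kinase P-TEFb, rose. Of 13 members of the SIN3 complex that MXD proteins and MNT use, 5 rose and 1 fell, with a median of 0.30, a share called not far from that of all genes. Ing1 (0.64), Sin3a (0.44) and Brms1 (0.36) were higher and Sap30 (-0.71) was lower. Of 13 genes that mark, stabilize or degrade MYC protein, 5 rose and 1 fell: the ubiquitin ligases Huwe1 (1.14) and Fbxw7 (0.51) and the deubiquitinase Usp22 (0.69) were higher, and the ligase subunit Skp2 (-0.99) was lower. Among 5 further partners of MAX or MLX and targets of MLX dimers, the MLX partner Mlxip (0.83) and the MAX partner Mga (0.44, below background by its mean) rose, while Txnip, a glucose-responsive target, fell (-0.57).

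In OTX015-treated tumours 16.8% of all named genes were called (1527 higher and 1338 lower). Of the 12 genes of proteins that MYC recruits or binds, 3 rose, Kat2a (0.41), Wdr5 (0.24) and Smarcb1 (0.20). On deposited values Kat2a alone passed and Smarcb1 had the opposite sign (-0.03). Brms1 (0.25) was the 1 SIN3 gene called, and on deposited values it did not pass. Fbxw7 (-0.22) and Pim1 (-0.24), a kinase below background by its mean, fell among the genes of MYC protein stability. Both also passed on deposited values (-0.47 and -0.46). On that scale the median of all probe sets was itself shifted by -0.21, which favours falls and works against rises. After centring each array on its median, Smarcb1, Fbxw7 and Pim1 did not pass (limma adjusted p of 0.119, 0.0897 and 0.0563). Kat2a, Wdr5 and Brms1 passed on that scale (limma adjusted p of 3.86e-06, 0.0213 and 0.0443). None of the 5 further partners and MLX targets was called there.

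**Figure D4:**
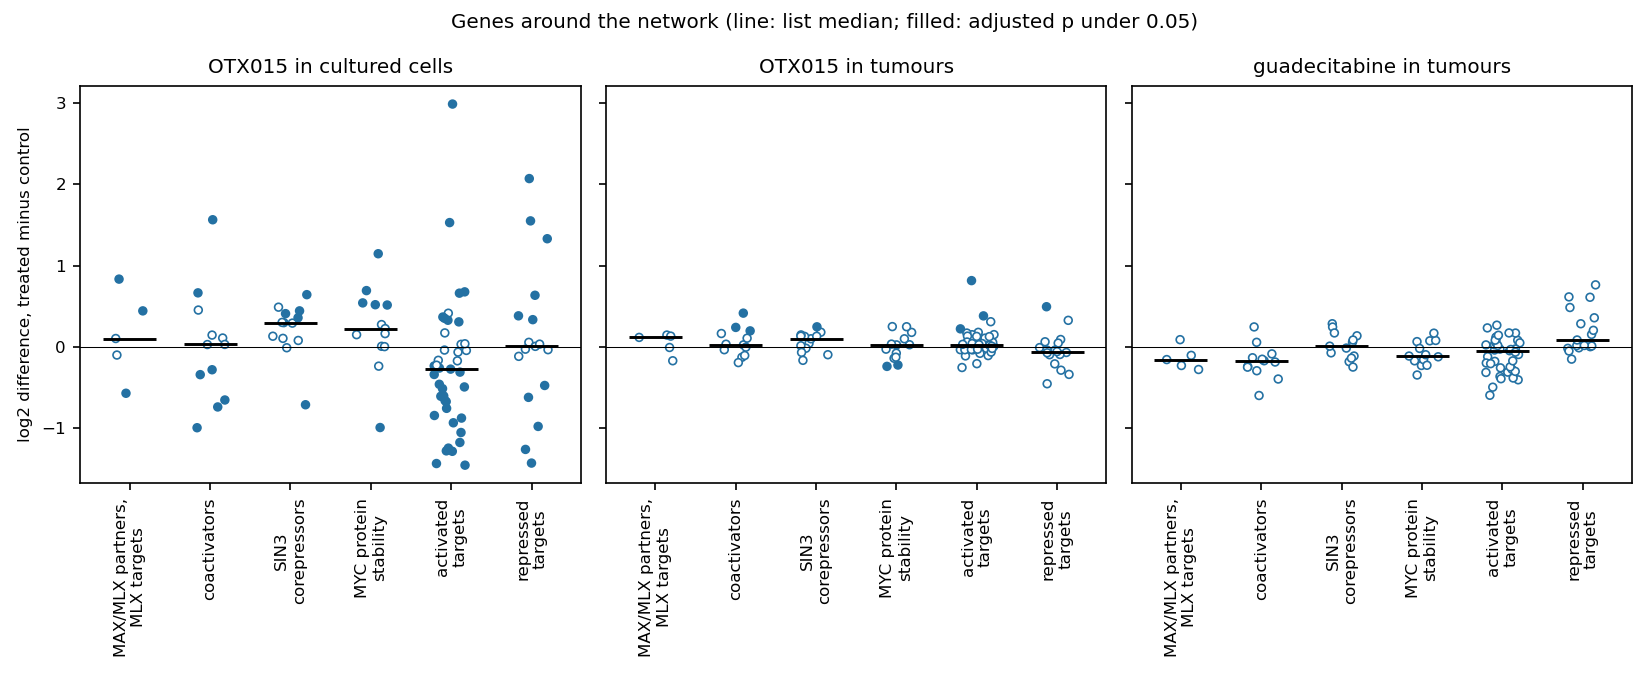
Log2 difference, treated minus control, of the genes around the network on their brightest probe sets (points; filled where adjusted p was under 0.05), with the median of each list as a line, in the 3 drug comparisons. In cultures the activated targets have a median of -0.27 and spread from Srm at -1.45 to Tfrc at 2.98; in both tumour comparisons the points lie nearer to 0, and with guadecitabine none is filled.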

How the data were processed

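The deposited table holds log2 values of 45141 probe sets on 40 Affymetrix 3′ arrays, made by the authors; the submitters' processing notes name RMA and Transcriptome Analysis Console, with no version. Per the labels' protocols, 500 ng of RNA was labelled for each array. RMA corrects background, equalizes the arrays processed together and combines probes; the sources used here do not name those arrays. Arrays have no read depth, so their number limits precision.

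Probe sets were named through the array's annotation with symbols from a RefSeq table; 28898 named 1 gene, 551 several and 15692 none. Each comparison was fitted over all probe sets on its own arrays with limma 3.58.1 in R 4.3.3 (lmFit, eBayes, two-sided), with Benjamini-Hochberg adjustment over all 45141 and a call at an adjusted p under 0.05. Cultures and the guadecitabine experiment were fitted on deposited values, and OTX015 in tumours and both tests of a difference after quantile normalization of the fitted arrays. Correlations used 100000 permutations. Brightest means the highest mean over the 40 arrays.

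The members and gene lists were chosen with earlier results of these data known. The rule for naming was every member, with values for its brightest probe set and any other called one, and up to 4 genes per list with the smallest adjusted p. The fits were tested on simulated data with known changes. Of 2-fold changes 98.5% were called in the design of the cultures, 95.5% in that of OTX015 in tumours and 71.6% in that of guadecitabine. Of 1.5-fold changes these shares were 77.6%, 82.1% and 53.7%, so the guadecitabine comparison misses more changes of this size. Alternatives were other scalings, filters on dim probe sets, 1 value per gene, a variance trend, array weights, all groups in 1 fit, a stricter threshold, a block for the replicate number, and leaving out every array in turn; fits without 3 arrays of low spread were added after the data had been seen.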

Additional observations from a re-analysis of the deposited data

Results flagged for a closer look

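For each member probe set, the highest and lowest array of each group of 4 to 10 were tested for standing apart, and 12 of 115 groups were marked; chance marks about 1 in 20. Myc was lowest in OTX015-treated tumour replicate 1, at 6.51 with the next at 7.66. All 4 Mxd4 probe sets were highest in OTX015-treated tumour replicate 4, at 7.79, 5.21, 6.09 and 3.92. Among the arrays of the OTX015 tumour experiment, that array also had one of the 3 lowest spreads of values (SD 1.82, against at least 1.90 outside those 3). Among cultures, Mxd1 on 1455104_PM_at was lowest in treated replicate 2 (4.51), Mxi1 on 1425732_PM_a_at in treated replicate 1 (4.33), Mxd4 on 1422574_PM_at in untreated replicate 1 (5.21) and Mycl on 1434777_PM_at in untreated replicate 4 (3.56, below background). Guadecitabine-treated tumour replicate 5 was lowest for Mycn on 1417155_PM_at (2.63, below background) and Mxd3 on 1438847_PM_at (5.43), and control replicate 1 of that experiment was highest for Mxd4 on 1422575_PM_at (4.40).

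The effect of OTX015 differed between tumours and cultures for Myc (1.12, not called on deposited values, at 0.86), Mxd1 (-0.99 and -1.001), Mxd4 (-0.58 on 1434379_PM_at and -0.84 on 1422575_PM_at) and Mlx (0.58, not called on deposited values). The effect of OTX015 in tumours differed from that of guadecitabine for Mxd4 on 1422575_PM_at (-0.58).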

How the results depend on the processing

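Of 1715 values of single members under alternative settings, none reversed a called direction, 21 lost a call, 13 gained one and 17 levels moved by more than the replicate SD under quantile normalization of all 40 arrays; 81 uncalled differences changed sign. The 7 calls in cultures became 4 of 9 with the brightest probe set per gene only and 4 with all 6 groups in 1 fit, where Mxi1 (adjusted p = 0.0952 in limma) and both Mxd4 probe sets were lost; leaving out 1 array gave 5 to 8. The 1 call for OTX015 in tumours became 12 on deposited values, where 26835 of all 45141 probe sets were called. It became 3 with array weights and 2 without the 3 arrays of lowest spread. It became 0 above background only, with the brightest probe set or with the mean of a gene's probe sets. Leaving out 1 array gave 1 to 2. The 6 differences between tumours and cultures became 10 on deposited values, which carry the shift of the OTX015-treated tumours. They became 2 with the brightest probe set, 3 with the mean per gene, and 5 to 7 with 1 array left out. The 1 difference between OTX015 and guadecitabine became 10 on the same shifted deposited values. It became 0 above background only, with the brightest probe set or with the mean per gene, and was 1 in each fit with 1 array left out. Guadecitabine gave 0 calls in each setting run. Replicate numbers did not pair the samples: deviations of same-numbered arrays correlated between -0.58 and 0.52, over 0.1 in 1 of 4 culture pairs, 5 of 10 pairs of the OTX015 tumours and 0 of 5 guadecitabine pairs. With the replicate block, calls were 8 in cultures, 1 and 0 in the tumour comparisons, 3 for tumours minus cultures and 1 for OTX015 minus guadecitabine, and the difference for Myc between tumours and cultures was 1.05 (limma adjusted p = 0.125).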
